A study of Rattus norvegicus with 8 samples.

Results

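The circadian clock genes examined here were Arntl, Clock, Per1, Per2, Per3, Cry1, Cry2, Nr1d1, Nr1d2 and Dbp. They were the 10 rows of the count table, out of 37209, whose symbol equalled one of these names without regard to case. All 10 had enough reads to be tested, together with 14359 genes in all. The animals were Sprague-Dawley males that weighed 400 g on average. The intima of the left carotid artery had been injured with a balloon dilatation catheter under isoflurane, and the undamaged right artery was the control. Collection was at 2 weeks, and 4 libraries of the injured and 4 of the undamaged arteries were sequenced. Neither the time of day of collection nor the light cycle is given in the sources used here, so the levels below are those of an unknown clock phase. The wall was sequenced whole, so fewer cells of a type and less RNA per cell cannot be told apart. The labels call the right artery a self-control but do not state that equal numbers mark 1 rat, and the p-values measure the spread between these libraries.

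The circadian clock is a transcriptional loop that runs in nearly every cell. ARNTL (also called BMAL1) pairs with CLOCK and binds E-boxes, which switches on the Per and Cry genes, and the PER and CRY proteins then return to the nucleus and inhibit the pair. In a second loop the nuclear receptors encoded by Nr1d1 and Nr1d2 (REV-ERB alpha and beta) repress Arntl through response elements called ROREs. Dbp encodes a transcription factor driven by E-boxes that carries the rhythm to output genes through D-boxes. In arteries this loop runs in smooth muscle and endothelial cells, and it is known for its links to the daily rhythm of blood pressure and vascular tone.

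The elements named above can be read in the DNA upstream of several members, and are shown because the members regulate each other through them. RefSeq windows of the GRCr8 build were found for 9 members, with 11 start sites, and Cry1 had none. The 250 bases before each start were searched on both strands for the E-box CACGTG, the variant E-box CACGTT, the D-box as TTATGTAA and TTACGTAA, the RORE as ANTAGGTCA and its variant ANTAGGTTA, and the cAMP response element TGACGTCA. At least 1 match was found in 4 members, namely Arntl, Per2, Cry2 and Nr1d1, and no match overlapped another. The windows of Clock, Per1, Per3, Nr1d2 and Dbp held none of these strings. Over all 33469 windows of the table, 5.59% held CACGTG, 4.07% CACGTT, 0.828% TTATGTAA, 0.108% TTACGTAA, 0.568% the RORE, 0.335% its variant and 1.59% the cAMP response element. A match is a description of the letters and no evidence of binding in these arteries.

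The Arntl stretch (chr1:176766254-176766327, plus strand, RefSeq symbol Bmal1) ends 1 base before the start. Its capitals mark the variant and the standard RORE, the elements read by REV-ERB proteins. In the Per2 stretch (chr9:99497030-99497205, minus strand) the capitals mark a D-box and a variant E-box. The 2 start sites of Nr1d1 are shown with a variant E-box on the opposite strand (first site, chr10:84231961-84232006, minus strand) and an E-box (second site, chr10:84229620-84229665, minus strand). Cry2 had a variant E-box on the opposite strand (chr3:98860624-98860669, minus strand).
Arntl: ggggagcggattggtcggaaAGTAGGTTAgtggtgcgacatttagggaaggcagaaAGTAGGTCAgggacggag
Per2: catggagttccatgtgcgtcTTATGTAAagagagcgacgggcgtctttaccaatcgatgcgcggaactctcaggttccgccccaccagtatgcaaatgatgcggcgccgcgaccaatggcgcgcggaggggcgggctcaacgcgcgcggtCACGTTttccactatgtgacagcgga
Nr1d1, first site: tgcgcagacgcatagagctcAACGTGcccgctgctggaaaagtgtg
Nr1d1, second site: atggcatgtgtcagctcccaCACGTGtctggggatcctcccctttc
Cry2: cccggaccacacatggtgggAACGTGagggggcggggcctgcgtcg

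The libraries held 13470754 to 15276952 counts in the control arteries and 11459632 to 16658089 in the injured ones, so the least abundant member, Cry1, still had 117 to 275 counts per library. Control artery 4 stood apart. Its log2 CPM correlated with the other controls at 0.830 to 0.852 across genes, against 0.976 to 0.978 among those, and it held 6831 CPM of 6 summed sympathetic neuron genes against 1.04 to 2.10 in the other controls. The same genes summed to 1164 CPM in injured artery 3, to 91.0 CPM in injured artery 1 and to 1.94 and 4.01 CPM in the other injured arteries. The extraction text of the labels names the prefrontal cortex, and of 5 brain genes the neuron genes Neurod6, Gad2 and Slc17a7 reached at most 0.655 CPM in any library, Gad1 reached 2.21 CPM, and the glial gene Gfap ranged from 0.738 to 26.8 CPM in the controls and from 8.78 to 196 CPM after injury. The smooth muscle gene Acta2 lay between 4110 and 15466 CPM. The marker lists shifted with injury. Among contractile smooth muscle genes 5 of 6 were called lower, with a summed level of 16620 to 44350 CPM in the controls and 10690 to 16800 CPM after injury. Macrophage genes (5 of 6 called higher, 76.0 to 111 against 355 to 485 CPM), proliferation genes (4 of 4 higher, 5.20 to 9.13 against 68.9 to 102 CPM) and skeletal muscle genes (4 of 6 higher, 82.0 to 230 against 229 to 874 CPM) went the other way. Myh4 and Mylpf, which define fast skeletal muscle, were at or under 0.360 CPM in every control. The part of these shifts in the levels of the clock genes was not tested.

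Expression is given in CPM, the reads of a gene per 1000000 reads of the library after its size was corrected with edgeR's TMM factor. Beside each log2 fold change stands its standard error (SE), and the edgeR adjusted p is that of the quasi-likelihood test with Benjamini-Hochberg adjustment. A gene was called differentially expressed when its p-value, adjusted over all 14359 genes (false discovery rate, FDR), was under 0.05 and its fold change above 2. None of the 10 clock genes met both criteria in edgeR's quasi-likelihood test, where 10.9% of all genes did (8.31% higher and 2.57% lower after injury), and DESeq2 also called 0. By the FDR alone 3 of 10 passed, Arntl and Clock lower and Per3 higher, against 17.2% of all genes (10.8% higher and 6.39% lower). At an unadjusted p under 0.05 the number was 6 of 10, against 31.1% of all genes. The injured and control arteries did not overlap for 1 member that was higher (Per3), against 14.2% of all genes, and for 3 that were lower (Arntl, Clock and Cry2), against 9.51%. The median log2 fold change of the 10 was -0.43, and that of all tested genes was -0.06. Without control artery 4 the members' median was -0.54, 6 of 10 passed the FDR, where 29.9% of all genes did, and 0 also had a fold change above 2.

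**Figure D1:**
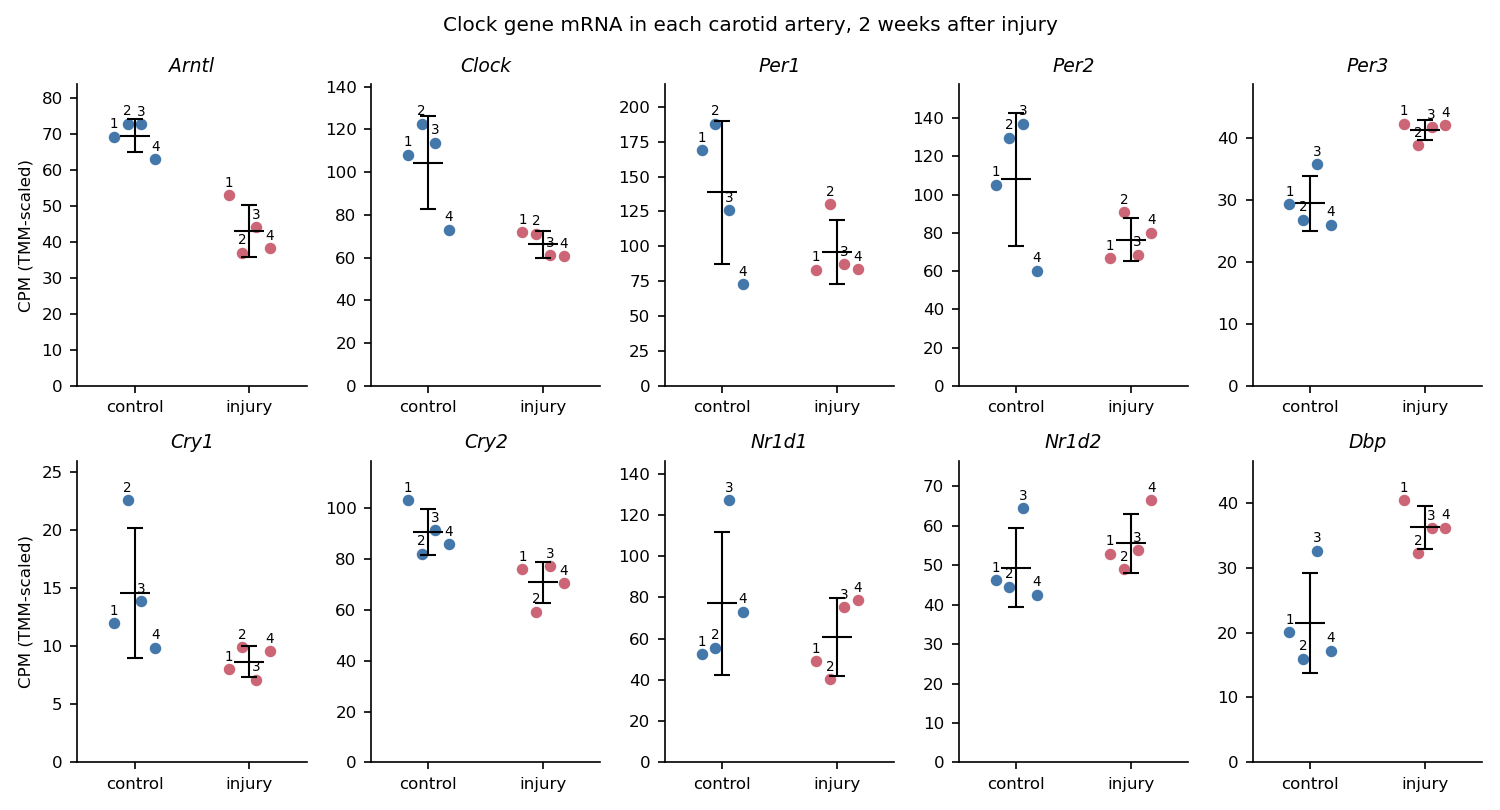
Level of each clock gene in CPM (vertical axis, from 0) in the 4 control and 4 injured arteries, with the replicate number above each point and the mean and SD in black. Arntl, Clock and Cry2 lie lower and Per3 lies higher in all 4 injured arteries than in all 4 controls, while Nr1d1 overlaps widely. Control artery 4 is the lowest control for Arntl, Clock, Per1, Per2, Per3, Cry1 and Nr1d2.

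The activators of the loop were lower after injury. Arntl mRNA was 69.3, 72.9, 72.8 and 63.2 CPM in control arteries 1 to 4 and 53.1, 37.1, 44.2 and 38.4 CPM in injured arteries 1 to 4. All injured arteries lay below all controls, and injured artery 1 came closest to them. The mean fell from 69.6 ± 4.58 CPM (SD, n = 4) to 43.2 ± 7.28 CPM, and the log2 fold change was -0.69 (SE 0.13, 95% interval -0.995 to -0.38, edgeR adjusted p = 0.0109), or 1.61-fold lower. Arntl was the only member that stayed under an FDR of 0.05 in all 16 alternative fits that tested for any change, at an adjusted p of 0.000141 to 0.0407 from edgeR or DESeq2.

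Clock encodes the partner of ARNTL. It was at 108, 123, 114 and 73.0 CPM in control arteries 1 to 4 and at 72.0, 71.2, 61.2 and 60.5 CPM in injured arteries 1 to 4. Control artery 4 lay only just above the highest injured artery and far from the other controls. The mean was 104 ± 21.7 CPM (SD, n = 4) in the controls and 66.2 ± 6.21 CPM after injury, and the log2 fold change was -0.66 (SE 0.17, edgeR adjusted p = 0.0326). Leaving out any single artery other than control artery 4 raised the edgeR adjusted p to between 0.0641 and 0.104. Without control artery 4 it was 0.00118, with a log2 fold change of -0.80. Clock also missed the FDR with library totals alone or upper-quartile factors, at an edgeR adjusted p of 0.0624 and 0.0876.

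Of the Period genes, which encode inhibitors of the pair, Per3 passed the FDR and was higher after injury. It had 29.3, 26.8, 35.8 and 26.0 CPM in the controls and 42.3, 38.8, 41.8 and 42.1 CPM in the injured arteries. Control artery 3 was the highest control, yet it stayed below every injured artery. The mean rose from 29.5 ± 4.42 CPM (SD, n = 4) to 41.2 ± 1.63 CPM, and the log2 fold change was 0.48 (SE 0.13, edgeR adjusted p = 0.0344), or 1.40-fold. The FDR was kept without control artery 3 or 4, where the edgeR adjusted p was 0.0214 and 0.0322, and lost without any of the other 6 arteries, at 0.0685 to 0.105, and with no filter on low counts, at 0.0703.

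Per1, which also responds to cAMP and to glucocorticoids, was at 169, 188, 126 and 72.7 CPM in control arteries 1 to 4 and at 83.2, 130, 87.4 and 83.9 CPM in injured arteries 1 to 4. The groups overlapped at both ends, since control artery 4 was the lowest of all 8 and injured artery 2 exceeded control artery 3. The log2 fold change of -0.53 (SE 0.30, 95% interval -1.21 to 0.15) came with an edgeR adjusted p of 0.271. Without control artery 4 it was -0.75 with an adjusted p of 0.0250. Immediate early genes, another group of quick responders, varied within the groups, with a summed level of 243 to 2296 CPM in the controls and 291 to 1292 CPM after injury over 6 genes, 0 of them called. Their part in the Per1 values was not tested.

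Per2, a core repressor of the loop, had 105, 130, 137 and 60.2 CPM in the controls and 66.6, 90.6, 68.5 and 80.1 CPM after injury. Control artery 4 was again the lowest of the 8, and the other controls were all above every injured artery. The log2 fold change was -0.50 (SE 0.25, edgeR adjusted p = 0.219), and -0.70 without control artery 4 (adjusted p = 0.00830). These 2 genes, Per1 and Per2, passed the FDR in that fit and in none of the other 15 alternatives.

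Cry1 and Cry2 encode the cryptochromes, the partners of the PER proteins. Cry1 was at 12.0, 22.6, 13.9 and 9.87 CPM in control arteries 1 to 4 and at 8.01, 9.94, 7.13 and 9.57 CPM in injured arteries 1 to 4. Control artery 2 held the highest level, and control artery 4 fell within the injured range. Its log2 fold change was -0.75 (SE 0.27, edgeR adjusted p = 0.102), and without control artery 4 it was -0.90 with an adjusted p of 0.0276. Cry2 was at 103, 82.2, 91.5 and 86.0 CPM in the controls and at 76.1, 59.4, 77.4 and 70.6 CPM after injury, without overlap but with a smaller difference of -0.36 on the log2 scale (SE 0.12, edgeR adjusted p = 0.0859). DESeq2 put Cry2 under the threshold at an adjusted p of 0.0442.

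The REV-ERB genes gave no difference that exceeded the spread between arteries. Nr1d1 had 52.6, 55.7, 127 and 73.1 CPM in the controls and 49.0, 40.3, 75.1 and 78.5 CPM in the injured arteries. Control artery 3 was the highest of all 8 libraries, and in both groups arteries 1 and 2 were lower than arteries 3 and 4. The log2 fold change was -0.34 (SE 0.33, 95% interval -1.11 to 0.42, edgeR adjusted p = 0.528), an interval that still includes a halving on the linear scale, and without control artery 3 it was 0.00. Nr1d1 overlaps Thra, which lies on the opposite strand. Thra had 301 to 413 CPM in the controls and 164 to 250 CPM after injury (log2 fold change -0.75, SE 0.18, edgeR adjusted p = 0.02375). Whether the reads were counted by strand is not given in the sources used here. Reads of these 2 genes thus cannot be told apart where they overlap. The part of Thra reads in the Nr1d1 values was not tested. Nr1d2 had 46.2, 44.5, 64.4 and 42.5 CPM in the controls and 52.9, 49.0, 53.7 and 66.4 CPM after injury. Control artery 3 was again the highest control and lay above 3 of the injured arteries. Its log2 fold change was 0.17 (SE 0.16, 95% interval -0.21 to 0.54, edgeR adjusted p = 0.529).

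Dbp, the output factor, had 20.02, 16.0, 32.6 and 17.2 CPM in control arteries 1 to 4 and 40.4, 32.3, 36.1 and 36.2 CPM in injured arteries 1 to 4. The overlap came from control artery 3 alone, which slightly exceeded injured artery 2. The mean was 21.5 ± 7.63 CPM (SD, n = 4) in the controls and 36.2 ± 3.31 CPM after injury. The log2 fold change of 0.75 (SE 0.23, 95% interval 0.22 to 1.29) was, with that of Cry1, the largest of the 10 in size, and its edgeR adjusted p of 0.0604 missed the threshold. Without control artery 3 it was 1.02 with an adjusted p of 0.00819, past both criteria, and without control artery 4 it was 0.66 with 0.0660. Library totals alone gave 0.93 (edgeR adjusted p = 0.0302), where the median of all genes moved up by 0.17, and DESeq2 gave 0.73 (adjusted p = 0.0257).

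**Figure D2:**
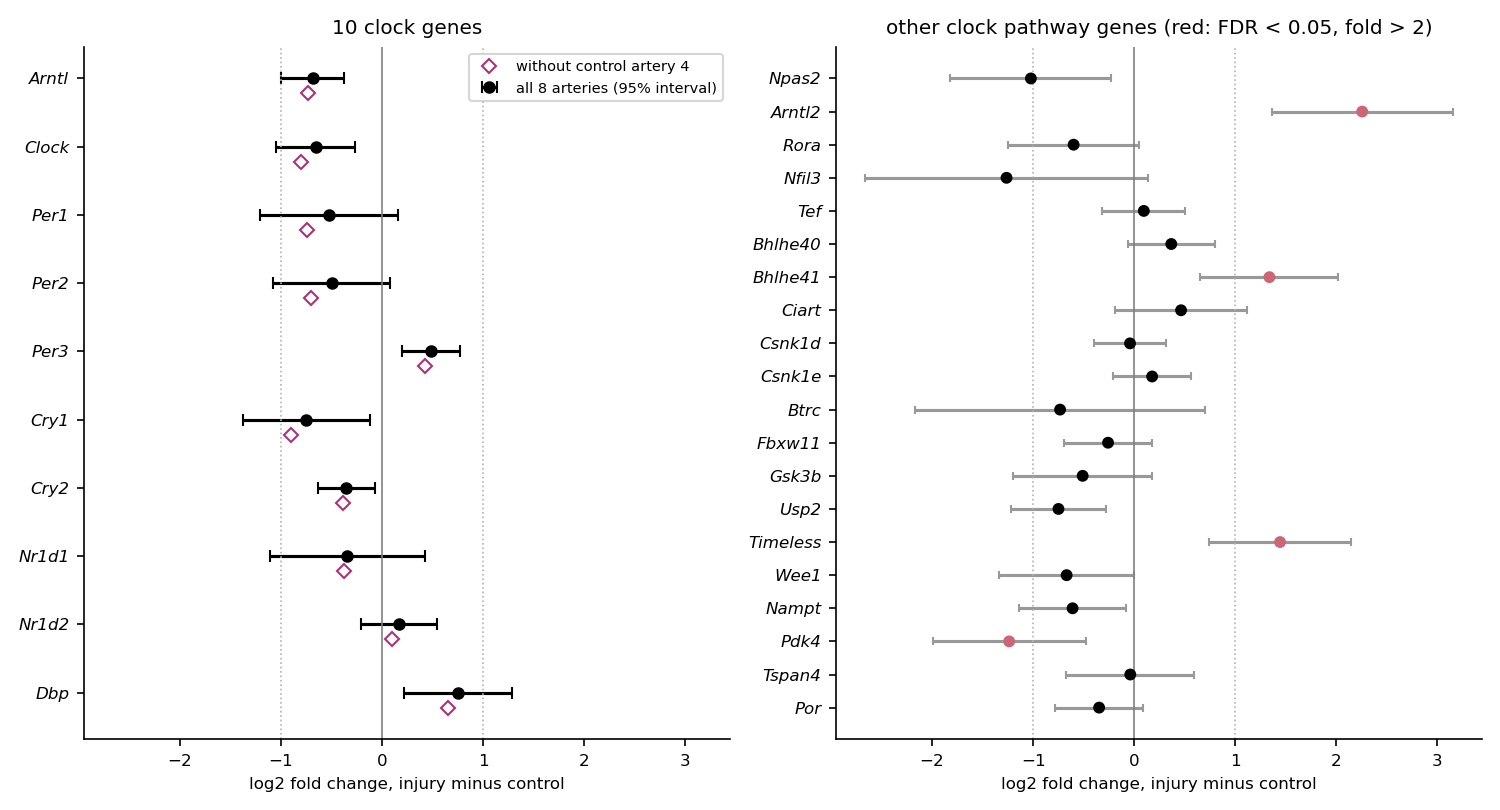
Log2 fold change, injury minus control, with its 95% interval (horizontal axis) for the 10 clock genes on the left, where open diamonds show the fit without control artery 4, and on the right for other tested genes of the clock pathway, with the called ones in red. Dotted lines mark a fold change of 2. The intervals of Arntl, Clock, Cry1 and Cry2 lie below 0 and those of Per3 and Dbp above it.

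Levels of different genes were not ranked, because no transcript lengths were used, but the ratio of 2 genes within a library can be compared between arteries and needs no scaling between libraries. The ratio of Dbp to Arntl reads was 0.289, 0.219, 0.448 and 0.273 in control arteries 1 to 4 and 0.761, 0.871, 0.816 and 0.942 in injured arteries 1 to 4. Every injured artery was above every control by a wide gap. The ratio of Per3 to Arntl reads lay between 0.368 and 0.491 in the controls and between 0.797 and 1.10 after injury, and that of Nr1d2 to Arntl between 0.611 and 0.884 and between 0.998 and 1.73. The ratio of Nr1d1 to Arntl overlapped, at 0.759 to 1.75 against 0.925 to 2.05. The ratio of Clock to Arntl also overlapped, at 1.16 to 1.68 in the controls and 1.36 to 1.92 after injury. Of all 45 ratios between members, 14 did not overlap between the groups. The share for ratios of other genes was not computed, so whether 14 is unusual is not known. Of all tested genes taken singly, 14.2% lay above and 9.51% below every control in all injured arteries. The ratios shown were chosen after the values of the genes had been seen, and all are given as descriptions.

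**Figure D3:**
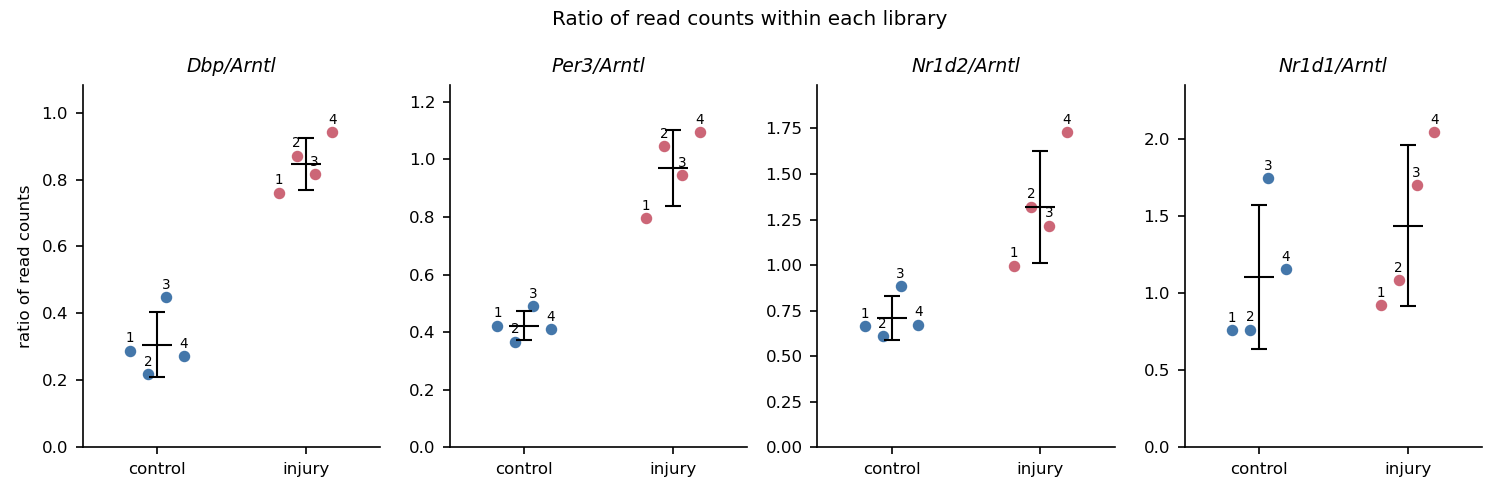
Ratio of read counts to those of Arntl within each library (vertical axis, from 0) for Dbp, Per3, Nr1d2 and Nr1d1 in the 4 control and 4 injured arteries, with replicate numbers, means and SDs. The ratios for Dbp, Per3 and Nr1d2 are separate between the groups, and that for Nr1d1 overlaps.

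Dbp and Per3 followed each other closely across the libraries. Among 14358 other tested genes, Per3 had the second highest correlation of log2 CPM with Dbp over the 8 arteries (Pearson r = 0.983), and control artery 3 was the highest control for both. These values come from the same 8 libraries and include the difference between the groups, so they describe likeness and carry no test. With the group means removed, r was 0.972 for Dbp and Per3 and 0.458 for Arntl and Clock. Nr1d2 and Nr1d1 then had r = 0.809 and r = 0.684 with Dbp, and the remaining members -0.213 to 0.399. Per3 and Nr1d2 had r = 0.868, so closeness within the groups was not particular to Dbp and Per3. The places and r values that follow keep the group means. The 5 non-member genes most like Dbp were Eps8 (r = 0.986), Il16 (r = 0.965), Bend3 (r = 0.960), Grap (r = 0.956) and LOC102548759 (r = 0.955). Nr1d2 came at place 1092 (r = 0.762) and Nr1d1 at place 6034 (r = 0.126), with Arntl at place 12775 (r = -0.649). For Arntl, the 5 most alike genes were LOC102548083 (r = 0.986), Prpf8 and Snrnp200 (r = 0.984 for each), Myh6 (r = 0.983) and Mesdc2 (r = 0.982). Cry2 was at place 605 and Clock at place 606 for Arntl (r = 0.857 and r = 0.856). In the plot of these pairs, control artery 4 sits with the other controls for Arntl but beside the injured arteries for Clock.

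**Figure D4:**
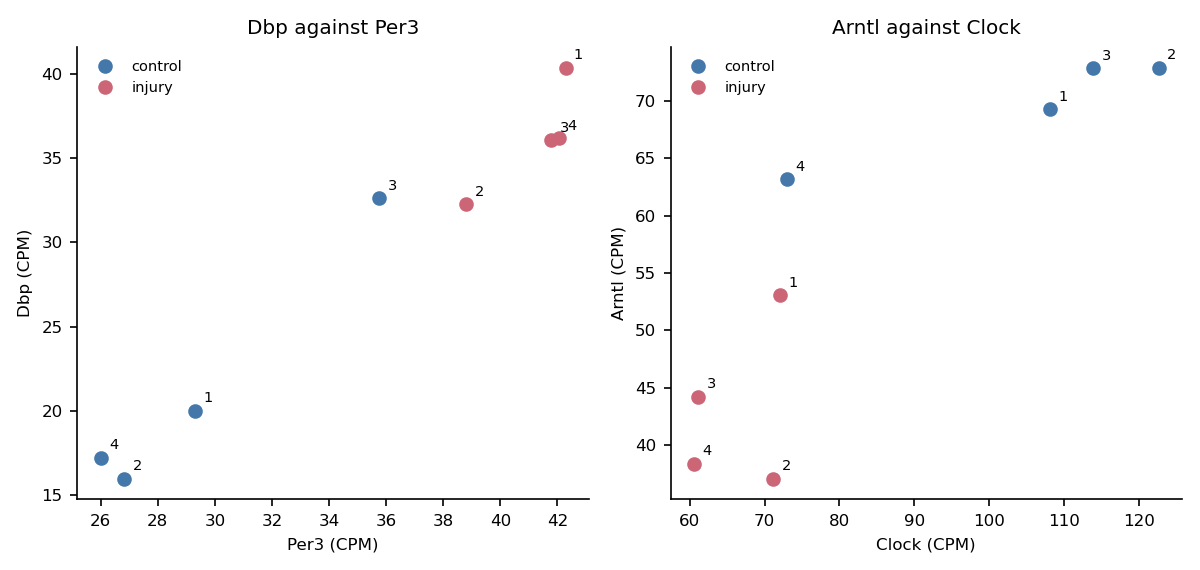
Dbp against Per3 on the left and Arntl against Clock on the right, both in CPM on linear axes that do not start at 0, with 1 point per artery labelled by its replicate number, controls in blue and injured arteries in red. Dbp and Per3 fall along 1 line with control artery 3 next to the injured arteries, whereas control artery 4 has 73.0 CPM of Clock beside 63.2 CPM of Arntl.

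Other genes of the clock pathway were taken from 3 lists with 26 genes. After matching to the count table and the filter on low counts, 22 of them were tested and 4 were called. Over all genes 10.9% were called, 8.31% higher and 2.57% lower, and with lists this small the counts below are not read as enrichment. Of 8 tested transcription factors of the list, 2 were called higher and 0 lower. Arntl2, the paralog of Arntl that can also pair with CLOCK, was low but rose in every injured artery, from 0.936, 0.984, 1.87 and 0.626 CPM in the controls to 3.83, 6.89, 4.04 and 6.55 CPM. Its log2 fold change of 2.26 (SE 0.39, edgeR adjusted p = 0.00652) was thus opposite to that of Arntl. It was called in all 8 fits that left out an artery. Bhlhe41, which encodes the E-box repressor DEC2, rose from 8.21, 8.53, 8.80 and 15.4 CPM to 16.6, 23.1, 28.6 and 35.3 CPM, with a log2 fold change of 1.34 (SE 0.30, edgeR adjusted p = 0.0185). It was not called without control artery 1, 2 or 3 or injured artery 4, at an adjusted p of 0.0564 to 0.0612.

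Npas2 can replace CLOCK as the partner of ARNTL. It was at 105, 111, 89.0 and 37.3 CPM in the controls and 56.2, 38.8, 28.8 and 44.6 CPM after injury, where control artery 4 was again in the injured range. The log2 fold change of -1.02 (SE 0.35) came with an edgeR adjusted p of 0.0813, and without control artery 4 it was -1.28 with 0.00335, past both criteria. DESeq2 called it on all 8 arteries, at -1.04 with an adjusted p of 0.0216. Nfil3, a repressor at D-boxes, had 205 and 153 CPM in control arteries 1 and 2 and 50.1 and 35.9 CPM in control arteries 3 and 4. It had 80.5, 48.1, 27.4 and 28.9 CPM in injured arteries 1 to 4, so the groups overlapped. The log2 fold change was -1.26 (SE 0.61, edgeR adjusted p = 0.201). With a replicate block, a term for the artery number, it was -1.05 (SE 0.25, edgeR adjusted p = 0.0624). Tef, which is related to Dbp, had a log2 fold change of 0.10 (SE 0.18). Rora, which activates through ROREs, had -0.60, Bhlhe40 had 0.37 and Ciart had 0.46, and none of these passed the FDR.

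Of 9 tested genes for the modification and turnover of clock proteins, 1 was called higher and 0 lower. That gene was Timeless, whose mammalian product is best known for its role at the DNA replication fork, and it rose from 2.85 to 6.12 CPM in the controls to 9.32 to 18.1 CPM (log2 fold change 1.44, SE 0.31, edgeR adjusted p = 0.0152) beside the higher level of the proliferation genes given above, whose part in it was not tested. It was called in all 8 fits that left out an artery. Usp2, a deubiquitinase, is named after its values were seen because it passed the FDR without the fold criterion, at 17.03 to 27.1 CPM against 10.5 to 16.8 CPM (log2 fold change -0.75, edgeR adjusted p = 0.0405). It kept the FDR without control artery 4 or injured artery 3 and lost it without any of the other 6 arteries, at 0.0834 to 0.120. The casein kinase genes Csnk1d and Csnk1e had log2 fold changes of -0.04 and 0.18, with 95% intervals of -0.40 to 0.31 and -0.21 to 0.56. Of 5 tested output genes 0 were called higher and 1 lower. This was Pdk4, a kinase that restrains the use of glucose, at 17.9, 51.3, 21.0 and 30.2 CPM in the controls and 13.9, 10.4, 12.2 and 14.6 CPM after injury (log2 fold change -1.24, edgeR adjusted p = 0.0368). Without control artery 2 it was -0.86 and not called (adjusted p = 0.0558), and leaving out any injured artery also ended the call, at an edgeR adjusted p of 0.0765 to 0.110.

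Glucocorticoid-responsive genes were read beside Per1, since glucocorticoids act on peripheral clocks. Of 5 tested genes 0 were called higher and 1 lower, against 8.31% and 2.57% of all genes. Their summed level was 624 to 1598 CPM in the controls and 406 to 1022 CPM after injury. Dusp1 alone, scaled by TMM factors unlike the sum, had 346 to 1451.5 and 146 to 772 CPM. It was a large part of the sum in some arteries, but the sum did not follow it throughout. Injured arteries 3 and 4 had 158 and 146 CPM of Dusp1 beside sums of 406 and 429 CPM. Klf9, named after its values were seen, passed the FDR without the fold criterion, lower without overlap (log2 fold change -0.79, SE 0.22, edgeR adjusted p = 0.03975). Klf9 kept the FDR without control artery 4, at an edgeR adjusted p of 0.00406. Leaving out any other single artery raised it to between 0.0571 and 0.106. The called gene was Zbtb16, at a log2 fold change of -1.49 (SE 0.42, edgeR adjusted p = 0.0453), and 6 of the 8 fits that left out an artery, all but those without control artery 1 or 4, did not call it, at an adjusted p of 0.0777 to 0.121. Members other than Nr1d1 also share their place with annotated neighbours. In the GRCr8 annotation, Clock, Per2 and Cry2 overlap long noncoding RNAs on the opposite strand and Cry1 overlaps another protein-coding locus, and without strand the reads of such partners cannot be told apart.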

How the data were processed

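RNA of 4 injured and 4 control carotid arteries was sequenced. The authors deposited raw counts per gene. HISAT2 2.0.4 is named in the submitters' processing notes, and the counting tool, genome build and strand setting are not given in the sources used here. The table holds 37209 genes and no column without a sample.

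The tests were run in R 4.3.3. After the filterByExpr filter of edgeR 4.0.16, which left 14359 genes, and scaling by TMM, injured and control arteries were compared by the quasi-likelihood test with no other term. A call needed an FDR (Benjamini-Hochberg) under 0.05 and a fold change above 2, the criteria of the study, which used DESeq. Standard errors were taken from the F statistic and 95% intervals from its degrees of freedom. Summed levels of lists use library totals without TMM factors. Correlations use log2 CPM with a prior count of 2. A floor of 3 counts corresponds to 0.180 to 0.262 CPM and covers counting error only. The fits were tested on simulated data.

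The alternatives were DESeq2 1.42.0, RLE or upper-quartile factors, library totals only, omission of the 10 most counted genes, a minimum of 10 counts in every sample or no filter, a replicate block, omission of each artery in turn, the FDR alone, and testing for more than a fold change of 2. The FDR alone under each of the other alternatives was added after the data were seen.

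All 10 members are named, as are the called genes of the other clock lists, Npas2, Tef, Nfil3, Bhlhe40, Ciart and Rora, and the 5 genes most correlated with Dbp and Arntl. The members, lists and ratios were chosen with earlier results of these data known. RefSeq sequences are of the GRCr8 build, which may not be the build of the counts. Endothelial, T cell, adventitial fibroblast, Schwann cell, adipocyte and brain genes were also listed. Some listed genes are not reported here by name.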

Additional observations from a re-analysis of the deposited data

Results flagged for a closer look

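In 42 groups of 4 arteries (the 10 clock genes and 11 other named genes), 4 held an artery whose gap to its nearest neighbour took more of the range than Dixon's 95% critical value allows, where about 1 in 20 groups, or 2.1, do so by chance. Injured artery 2 was high for Per1 at 130 CPM against 87.4 CPM in the nearest injured artery (gap over range 0.911) and low for Per3 at 38.8 against 41.8 CPM (0.855). Control artery 3 was high for Nr1d2 at 64.4 against 46.2 CPM (0.833). Control artery 4 was high for Bhlhe41 at 15.4 against 8.80 CPM (0.918). The cause of these gaps was not tested.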

How the results depend on the processing

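Of 170 member fits over the alternatives, 168 kept the direction and the joint call by FDR and fold change, whereas the FDR alone was crossed often. No member was called in the main fit, so the joint call could change only where a member crossed both thresholds. The test against a fold change of 2 shares the main estimates and could not change a direction. The count of 168 is therefore a weak measure of stability. Nr1d1 ranged from -0.50 to 0.0023 (log2) with an artery left out and reversed without control artery 3, which also made Dbp a called gene. The members called, 0 in all, were 3 by the FDR alone (1 higher, 2 lower) and 0 to 1 with an artery left out. Those with an FDR under 0.05, 3 in all, were 5 with DESeq2, 1 with the replicate block, 0 against a fold change of 2 and 1 to 6 with an artery left out, the highest without control artery 4. The other clock genes called, 4 in all (3 higher, 1 lower), ranged from 2 to 5 with an artery left out (2 to 3 higher, 0 to 2 lower). Against a fold change of 2 there was 1, which was higher, and 0 lower. The lower ones were 2 with DESeq2 or the FDR alone and 0 with library totals only or the replicate block. Over all genes 1562 were called (1193 higher, 369 lower), 1007 (715 higher) with at least 10 counts in every sample, 2468 (918 lower) by the FDR alone, 661 (600 higher, 61 lower) against a fold change of 2, and 1142 to 2398 (945 to 1817 higher, 197 to 581 lower) with an artery left out. For all of these, the cause was not tested.

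With the replicate block 234 genes were lower, and the adjusted p in edgeR's test was 0.0406 for Arntl, 0.0588 for Clock and 0.0838 for Per3. The immediate early gene Fosb, which was not called without the block (-2.38, 0.194), was called with it (-2.73, 0.0141), and Junb passed the FDR (0.87, 0.0375). The glucocorticoid-responsive gene Dusp1 was also called with the block (-1.47, 0.0270). These were picked once their values were known. Injured and control arteries of equal number deviated from the group means with correlations of 0.301, 0.45, -0.52 and -0.416 over all genes. The highest for different numbers was 0.784, between control artery 4 and injured artery 3. Whether equal numbers mark 1 rat cannot be settled by these values, and the main fit used no pairs. Over the 10 clock genes the correlations for equal numbers were 0.25, 0.868, 0.543 and 0.422 (median 0.4825). Those for different numbers were -0.954 to 0.759 (median -0.321), and 1 of 4 controls and 1 of 4 injured arteries matched their own number best.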

Other observations

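Marker lists outside the account above were counted with the same rule. Of 5 endothelial genes, Cdh5 and Kdr were called higher and Vwf lower, with a summed level of 700 to 1788 CPM in the controls and 642 to 932 CPM after injury. Of 5 adventitial fibroblast genes, Dpt was called higher and Dcn and Pi16 lower (1665 to 3006 against 1517 to 2677 CPM). Of 4 T cell genes, Cd2 was called higher (0.342 to 3.42 against 5.10 to 12.8 CPM). The Schwann cell list had 0 of 4 tested genes called (224 to 991 against 427 to 1608 CPM), the adipocyte list 0 of 5 (73.7 to 637 against 122 to 329 CPM), the sympathetic neuron list 0 of 3 (1.94 to 1164 CPM after injury) and the brain list 0 of 1 (1.97 to 26.9 against 9.26 to 211 CPM), in edgeR's test. The genes named here were picked once the calls were known.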
